A study of Homo sapiens with 9 samples.

Results

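Cholesterol and fatty acids are built from acetyl-CoA by enzymes whose genes are largely under the control of the sterol regulatory element-binding proteins. The set described here holds 38 of these genes, chosen by name and found through their versioned Ensembl identifiers in GENCODE release 29, out of 58721 genes counted. All 38 were found. They comprise 26 sterol genes (5 regulators, 7 genes of the mevalonate and isoprenoid steps, 11 of the steps from squalene to cholesterol and 3 of sterol transport) and 12 fatty acid genes (5 of supply and synthesis, 6 of elongation and desaturation and 1 of activation).

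Total RNA was sequenced in 9 libraries of H1299 cells, a human line established from a non-small cell lung carcinoma. There were 3 libraries from cells given 0.1 mM melatonin, 3 from cells given siCLOCK, a small interfering RNA against the circadian transcription factor CLOCK, and 3 from control cells in serum free medium. The labels name no non-targeting siRNA, no vehicle and no treatment time, and they do not say which medium the treated cells had. The samples of a group are called independent, without a statement that they came from separate cultures, so the p-values speak only to the spread among these samples, which may be technical.

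The proteins encoded by SREBF1 and SREBF2 are made as membrane-bound precursors that SCAP carries from the endoplasmic reticulum to the Golgi, where proteases release the active factor. Sterols hold the precursor back by binding SCAP to INSIG1 or INSIG2. SREBF2 is best known for driving cholesterol synthesis and SREBF1 for driving fatty acid synthesis and desaturation, and many of these genes are switched on when membrane sterol runs low. Whether melatonin and siCLOCK change these transcripts, and whether they do so alike, are the questions that the 3 groups allow.

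Gene counts per library ranged from 15384539 to 19192962, and 16441 genes passed the filter on low counts. CLOCK itself stood at 20.9, 32.0 and 38.1 CPM (counts scaled to library size by TMM) in siCLOCK replicates 1 to 3, against 39.0, 38.6 and 44.4 CPM in the controls, with 40.9, 41.6 and 39.0 CPM under melatonin. These siCLOCK values are 51.5%, 78.7% and 93.8% of the control mean. The fold change of CLOCK in siCLOCK cells was -0.42 on the log2 scale (SE 0.136), with an adjusted p of 0.340, and 1 library is therefore written as the library labelled siCLOCK replicate 3. That library and the 3 melatonin libraries had 2.24% to 2.34% unmapped reads and 0.364% to 0.378% of gene counts on processed pseudogenes, against 1.22% to 1.36% and 0.204% to 0.218% in the other 5 libraries. Melatonin and control therefore lie wholly in different technical sets and cannot be told apart from them in that comparison alone, and only the siCLOCK group spans both. A model with a term for the technical set takes that term from the library labelled siCLOCK replicate 3 against siCLOCK replicates 1 and 2, and its values are given beside the named calls that it ends. That library also had the most CLOCK of the siCLOCK group, so the term cannot be told apart from the extent of knockdown. Because the term rests on 1 library, a call can also end through a wider error alone. Whether a call that ended there was technical was not tested. For melatonin against siCLOCK that model leaves the library labelled siCLOCK replicate 3 alone on the siCLOCK side. KRT8, KRT18 and VIM, expressed by carcinoma lines of this kind, lay between 130 and 2018 CPM. In melatonin libraries KRT8 stood at 79.5% to 81.3% of the control mean, KRT18 at 79.2% to 82.5% and VIM at 79.1% to 82.4%, while the siCLOCK libraries ran from 86.3% (KRT8) to 128% (KRT18) and the controls from 85.8% to 111% (both KRT8). The part of this in the results was not tested. Of 15 markers of blood, vessel, fibroblast, liver and fat cells, 2 passed the filter (PECAM1 and COL1A1), 3 had no read (CD3E, HBB and LEP), the highest value was 4.08 CPM, and their sum was 4.05 to 4.60 CPM in melatonin, 5.63 to 6.82 CPM in siCLOCK and 5.47 to 6.25 CPM in control libraries.

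Promoter sequence is shown for 6 genes that the results turn on, namely the regulators SREBF1, SREBF2 and INSIG1 and the enzymes FDPS, TM7SF2 and SCD. Each line holds the 250 bases before the start that RefSeq gives the gene on GRCh38.p14, 5′ to 3′ on the gene's strand. The GENCODE release 29 gene, whose positions are used elsewhere here, begins earlier in each case, so that 16 bases of the SREBF1 window, 26 of SREBF2, 102 of INSIG1, 118 of FDPS, 27 of TM7SF2 and 109 of SCD lie within the gene as GENCODE places it. The regions are chr17:17836987-17837236 (minus strand) for SREBF1, chr22:41832855-41833104 (plus) for SREBF2, chr7:155297628-155297877 (plus) for INSIG1, chr1:155308616-155308865 (plus) for FDPS, chr11:65111622-65111871 (plus) for TM7SF2 and chr10:100346983-100347232 (plus) for SCD. Capitals mark 3 motifs, searched on both strands: TCACNCCAC, a core of the sterol regulatory element, CACGTG, the E-box that CLOCK and its partner bind, and CCAAT, which reads ATTGG on the opposite strand and is the site of NF-Y, a partner of the SREBP factors.
SREBF1: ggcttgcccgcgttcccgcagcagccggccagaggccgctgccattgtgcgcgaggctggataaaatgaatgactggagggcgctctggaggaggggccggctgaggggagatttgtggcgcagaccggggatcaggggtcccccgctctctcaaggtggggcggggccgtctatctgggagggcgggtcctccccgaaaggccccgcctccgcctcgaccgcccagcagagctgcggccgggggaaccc
SREBF2: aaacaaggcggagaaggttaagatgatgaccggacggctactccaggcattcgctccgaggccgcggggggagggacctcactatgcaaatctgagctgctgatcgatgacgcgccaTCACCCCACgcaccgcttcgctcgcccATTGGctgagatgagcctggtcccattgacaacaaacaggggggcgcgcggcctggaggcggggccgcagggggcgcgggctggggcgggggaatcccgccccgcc
INSIG1: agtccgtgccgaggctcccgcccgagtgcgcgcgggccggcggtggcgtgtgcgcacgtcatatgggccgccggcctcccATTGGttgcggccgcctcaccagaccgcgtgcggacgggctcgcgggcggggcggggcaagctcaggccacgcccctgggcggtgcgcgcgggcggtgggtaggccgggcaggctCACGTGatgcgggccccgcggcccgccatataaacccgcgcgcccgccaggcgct
FDPS: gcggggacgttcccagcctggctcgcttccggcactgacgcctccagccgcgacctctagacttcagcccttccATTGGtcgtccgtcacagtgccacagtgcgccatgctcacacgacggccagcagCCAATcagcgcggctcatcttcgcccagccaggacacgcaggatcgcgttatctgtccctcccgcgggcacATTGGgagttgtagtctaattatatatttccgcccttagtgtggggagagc
TM7SF2: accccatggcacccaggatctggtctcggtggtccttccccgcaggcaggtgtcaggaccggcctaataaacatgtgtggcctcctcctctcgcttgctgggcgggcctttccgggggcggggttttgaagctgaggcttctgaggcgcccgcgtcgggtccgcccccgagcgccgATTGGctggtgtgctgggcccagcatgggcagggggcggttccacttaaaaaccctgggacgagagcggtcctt
SCD: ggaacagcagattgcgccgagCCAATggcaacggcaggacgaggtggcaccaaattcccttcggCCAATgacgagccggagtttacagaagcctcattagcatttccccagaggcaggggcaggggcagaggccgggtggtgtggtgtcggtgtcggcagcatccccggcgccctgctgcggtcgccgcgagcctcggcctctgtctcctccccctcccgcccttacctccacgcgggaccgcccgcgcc
SREBF2 held a sterol element and a CCAAT box, INSIG1 an E-box and a CCAAT box, FDPS 3 CCAAT boxes, SCD 2 and TM7SF2 1, and the SREBF1 window held none of these motifs. For SREBF1 only this window was searched, so motifs elsewhere at the gene would not be seen. The E-box of INSIG1 and the CCAAT box of FDPS nearest the start lie in the stretch that GENCODE counts as gene. Of the 38 genes, 33 had a promoter in the table (ACAT2, FDFT1, SQLE, ABCG1 and FASN had none). A gene with several starts was counted if any of its windows held the motif. CCAAT lay in 24 of the 33 (72.7%), against 37.0% of all 27305 genes with a promoter there and 40.2% of the 15843 protein-coding ones. CACGTG lay in 5 of the 33 (15.2%: ABCA1, ELOVL5, INSIG1, SC5D and SCAP), against 7.73% of all and 9.73% of protein-coding genes. TCACNCCAC lay in 1 of the 33 (3.03%), against 1.09% and 1.19%. A match of letters is a description and not a site shown to be bound.

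After melatonin the set moved in both directions and by small amounts, with SREBF1 as the largest change. SREBF1 fell to 67.6% of the control mean, and lower levels were also called for FDPS, FDFT1, EBP, FADS1, FADS2 and PMVK, while TM7SF2, SCD and SC5D rose. These 10 are 27.8% of the 36 genes tested, against 23.1% of all genes tested, so the share called was near the background. Of the 36, 3 were called higher and 7 lower, against 11.0% and 12.1% of all genes. The median log2 fold change of the 36 was -0.02, against 0.01 over all genes. An unadjusted p under 0.05 was reached by 18 of the 36, against 5790 of the 16441 genes. Melatonin and control libraries did not overlap for 18 of the 36 genes (50%), against 43.4% of all genes. Of the 18, 5 were higher and 13 lower after melatonin, against 21.9% and 21.4% of all genes. This lean to lower values was not tested. With the term for the technical set, all 10 called genes kept their direction and SREBF1 alone stayed called. In bulk RNA, fewer cells expressing a gene and less of its RNA per cell cannot be told apart.

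**Figure D1:**
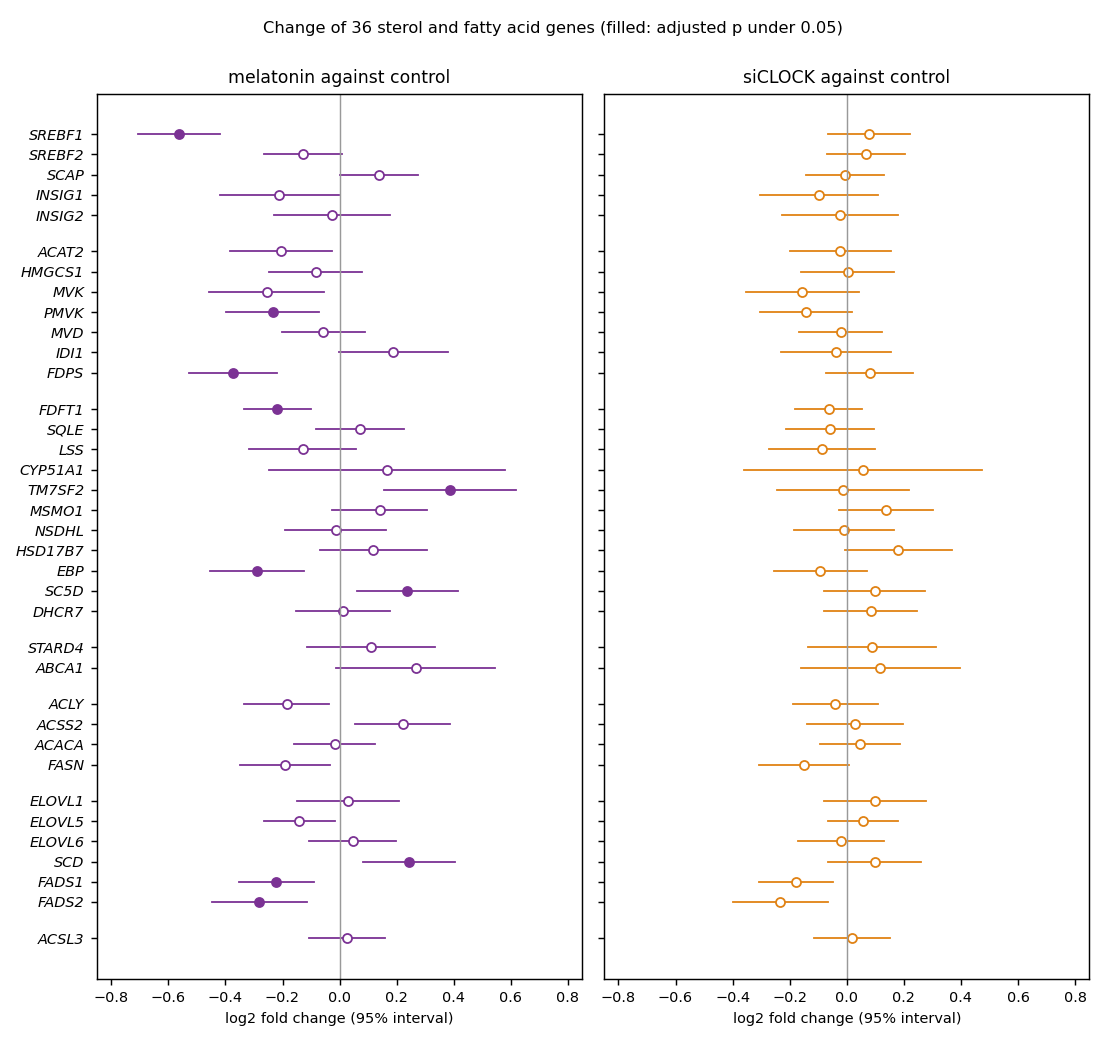
Log2 fold change with its 95% interval for the 36 tested genes, melatonin against control on the left and siCLOCK against control on the right, grouped by role. Filled points have an adjusted p under 0.05: 10 in the melatonin panel, from -0.56 for SREBF1 to 0.39 for TM7SF2, and 0 in the siCLOCK panel.

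Among the regulators, SREBF1 (chromosome 17, 17810399 to 17837002, minus strand) carried the change. Its level was 391, 404 and 401 CPM after melatonin, against 595, 597 and 577 CPM in control. The highest melatonin library lay far below the lowest control library, and the log2 fold change was -0.56 (SE 0.0687, adjusted p = 1.2e-05). SREBF1 was lower under each of the 20 alternative fits, with log2 fold changes between -0.62 and -0.48 and adjusted p-values between 4.05e-16 and 0.0104, and with the technical set term it stood at -0.51 (adjusted p = 0.0104). The siCLOCK libraries held 566, 694 and 607 CPM, the last in the library labelled siCLOCK replicate 3, which shares the technical set of the melatonin libraries. The part of the technical set in the SREBF1 difference was not tested. The counts join all transcripts of the gene, so its isoforms were not told apart.

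SREBF2 (chromosome 22, 41833079 to 41907308) did not pass the test after melatonin. It had 252, 254 and 241 CPM in melatonin, against 265, 272 and 278 CPM in control libraries. The groups did not overlap, with a log2 fold change of -0.13 (SE 0.0648, adjusted p = 0.168). Within each library the ratio of SREBF1 to SREBF2 counts, which does not depend on scaling, was 1.60 ± 0.0561 in melatonin and 2.17 ± 0.0874 in control libraries (SD, n = 3 each). Every melatonin ratio lay below every control ratio, and the two-sided exact permutation test gave p = 0.1, the smallest that 3 against 3 libraries allow.

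SCAP, the escort of both factors, had 72.8, 75.5 and 78.2 CPM after melatonin, against 69.3, 70.3 and 66.3 CPM in control (log2 fold change 0.14, adjusted p = 0.135). INSIG1, which is itself a sterol-responsive gene, had 139, 142 and 136 CPM after melatonin, against 155, 149 and 178 CPM in control (-0.21, adjusted p = 0.136). For both genes the groups stood apart without passing the threshold. INSIG2, its relative, had 27.9, 29.9 and 26.9 CPM in melatonin and 33.0, 26.4 and 26.9 CPM in control libraries, and these overlapped (-0.03, adjusted p = 0.881). The ratio of INSIG1 to INSIG2 counts was 4.93 ± 0.169 in melatonin and 5.65 ± 0.946 in control libraries (SD, n = 3 each, two-sided exact permutation p = 0.4).

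**Figure D2:**
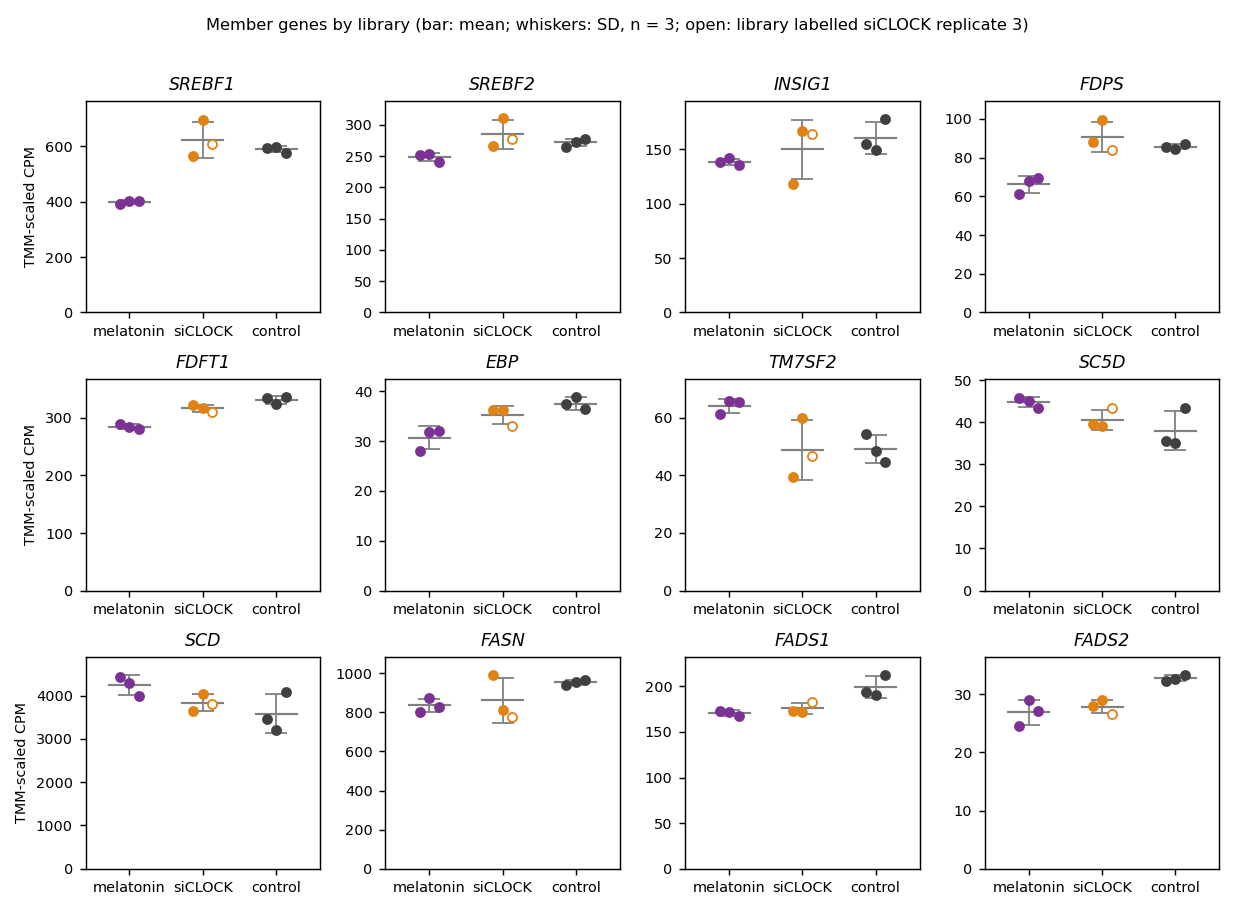
TMM-scaled CPM of 12 genes in each library of the melatonin, siCLOCK and control groups, with the mean as a bar and the SD as whiskers (n = 3), and the library labelled siCLOCK replicate 3 as an open point. For SREBF1 the melatonin libraries sit between 391 and 404 CPM, below every siCLOCK and control library.

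The mevalonate and isoprenoid steps turn acetyl-CoA into farnesyl diphosphate, the precursor of sterols, ubiquinone, dolichol and prenyl groups. Of their 7 genes, 2 fell after melatonin and none rose (28.6%, against 23.1% of all genes called and 12.1% called lower), with a median log2 fold change of -0.21. FDPS (chromosome 1, 155308748 to 155320666), which makes farnesyl diphosphate, had 61.2, 67.8 and 69.5 CPM after melatonin, against 85.5, 84.5 and 87.2 CPM in control. All melatonin libraries were lower, at 77.2% of the control mean, with a log2 fold change of -0.37 (SE 0.0737, adjusted p = 0.0013). FDPS was called in 19 of 20 alternative fits. With the technical set term it stood at -0.21 (adjusted p = 0.358). RUSC1-AS1 on the other strand shares 35.7% of the FDPS exon bases, where reads counted without strand are set aside as ambiguous.

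PMVK (phosphomevalonate kinase) had 21.8, 22.3 and 22.9 CPM after melatonin, against 26.4, 27.2 and 25.2 CPM in control. The groups did not overlap, and the log2 fold change was -0.23 (SE 0.0779, adjusted p = 0.0364). The PMVK call was held in 10 of 20 alternatives, the counts of the first strand alone included (-0.37). It ended, among others, without melatonin replicate 1, 2 or 3 (adjusted p = 0.108, 0.106 and 0.0742) or control replicate 1 or 2 (0.0888 and 0.124), under DESeq2 (0.0559), with no filter (0.0658), with the set term (-0.20, 0.477) and in the deposited counts of the second strand alone (-0.05, 0.765). MVK, the kinase before it, had a larger change that did not pass, with 14.6, 15.2 and 17.5 CPM after melatonin, against 19.1, 18.6 and 19 CPM in control (-0.26, adjusted p = 0.0597). The library labelled siCLOCK replicate 3 had 15.3 CPM of MVK, within the melatonin range, and the set term moved the value to -0.03.

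The other 4 genes of these steps did not pass. Of the 20 alternatives, 5 called MVK, 4 called ACAT2 and 3 called IDI1. ACAT2, the cytosolic thiolase that joins acetyl groups, stood at -0.21 (adjusted p = 0.0898), and 69.6% of its exon bases are shared with genes on the other strand. HMGCS1, the next enzyme, stood at -0.08, and MVD, the mevalonate decarboxylase, at -0.06. IDI1, the isomerase that makes the active isoprene unit, had 136, 128 and 126 CPM in melatonin and 109, 105 and 130 CPM in control libraries (0.19, adjusted p = 0.148). The library labelled siCLOCK replicate 3 held 127 CPM of IDI1, and with the set term its fold change was -0.10.

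The 11 genes from squalene to cholesterol split evenly, with 2 lower and 2 higher after melatonin (36.4%, against 23.1% of all genes), 7 not called and a median of 0.07. FDFT1 (squalene synthase), the first step committed to sterols, had 289, 284 and 281 CPM after melatonin, against 335, 323 and 336 CPM in control. The log2 fold change was -0.22 (SE 0.0563, adjusted p = 0.00886), with no overlap between the groups. EBP, a sterol isomerase, had 28.1, 31.9 and 32.1 CPM after melatonin, against 37.4, 38.8 and 36.4 CPM in control. All 3 melatonin libraries were lower (-0.29, SE 0.0786, adjusted p = 0.0124). With the set term FDFT1 stood at -0.18 (adjusted p = 0.343) and EBP at -0.16 (0.576). The FDFT1 call also ended in the counts of the first strand alone (-0.16, 0.0773), and that of EBP in those of the second (-0.25, 0.0758) and without melatonin replicate 1 (0.0715) or control replicate 2 (0.0588).

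TM7SF2 (chromosome 11, 65111845 to 65116384), a reductase acting on the sterol ring, was the largest rise of the set. It had 61.5, 65.8 and 65.6 CPM after melatonin, against 54.3, 48.4 and 44.8 CPM in control. Every melatonin library was above every control library, at 131% of the control mean (log2 fold change 0.39, SE 0.110, adjusted p = 0.0157). The call ended without melatonin replicate 2 or 3 (adjusted p = 0.0615 and 0.0603) or control replicate 2 or 3 (0.0641 and 0.0737). It also ended in the counts of the first strand alone (0.27, 0.153) and with the set term, where the value was 0.48 (0.151). The siCLOCK libraries spread widely for TM7SF2, at 39.5, 60.1 and 46.6 CPM.

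SC5D, a sterol desaturase acting late in the pathway, had 45.7, 45.1 and 43.4 CPM after melatonin, against 35.6, 34.9 and 43.3 CPM in control. Control replicate 3 nearly met the lowest melatonin library, and the log2 fold change was 0.24 (SE 0.0845, adjusted p = 0.0491). This was the weakest call of the set, held in 9 of 20 alternatives. It ended without control replicate 1 or 2 (adjusted p = 0.190 and 0.215), siCLOCK replicate 2 (0.0528) or melatonin replicate 1, 2 or 3 (0.155, 0.145 and 0.0972), and with the set term it stood at 0.10 (0.779). It also ended with RLE scaling (0.0537), with no filter (0.0836), under DESeq2 (0.0631) and in the counts of the second strand (0.16, 0.308). The library labelled siCLOCK replicate 3 also had 43.3 CPM. The 7 genes of these steps that were not called, SQLE, LSS, CYP51A1, MSMO1, NSDHL, HSD17B7 and DHCR7, lay between -0.13 and 0.17. CYP51A1, the lanosterol demethylase, had 2.69 to 3.46 CPM after melatonin, against 2.18 to 3.14 CPM in control, and 89.1% of its exon bases are shared with other genes, where reads counted without strand are set aside as ambiguous.

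Sterol transport held no call after melatonin. ABCA1, which exports cholesterol from cells, had 39.8, 38.5 and 38.0 CPM after melatonin, against 34.0, 30.5 and 32.1 CPM in control (0.27, SE 0.133, adjusted p = 0.159). The melatonin libraries were all higher, but the siCLOCK libraries ran from 24.2 to 42.7 CPM, and with the set term the value was -0.19. STARD4, a carrier of sterol between membranes, stood at 0.11 and with the set term at -0.33 (adjusted p = 0.182). ABCG1, another exporter, had 21 reads in all 9 libraries and did not pass the filter.

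Supply and synthesis of saturated fatty acids likewise held no call, although of the 20 alternatives 7 called ACLY, 6 called ACSS2 and 4 called FASN. FASN (fatty acid synthase) had 804, 873 and 830 CPM after melatonin, against 941, 956 and 966 CPM in control. The groups stood apart without passing (-0.19, SE 0.0756, adjusted p = 0.0751), and with the set term the value was 0.02. ACSS2, which makes acetyl-CoA from acetate, had 77.8, 79.7 and 80.9 CPM after melatonin, against 74.5, 63.5 and 66.7 CPM in control (0.22, SE 0.0800, adjusted p = 0.0530). ACLY, which makes it from citrate, had 161, 161 and 165 CPM, against 169, 184 and 201 CPM (-0.19, adjusted p = 0.0652), and -0.01 with the set term. The acetyl-CoA carboxylase gene ACACA stood at -0.02, and THRSP, a lipogenic regulator in liver and fat, had 4 reads in all libraries and did not pass the filter.

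Elongation and desaturation held 3 calls among 6 genes, against 23.1% of all genes, and the desaturases did not move alike. SCD (chromosome 10, 100347124 to 100364834), which makes monounsaturated fatty acids, was the most abundant gene of the set, with 4440, 4285 and 4001 CPM after melatonin, against 3467, 3206 and 4074 CPM in control. Control replicate 3 exceeded melatonin replicate 3, so the groups overlapped (log2 fold change 0.24, SE 0.0772, adjusted p = 0.0286). The SCD call ended without melatonin replicate 1 or 2 (adjusted p = 0.130 and 0.0977) or control replicate 1 or 2 (0.111 and 0.169). With the set term the value was 0.26 (0.292). SCD took 0.411% to 0.458% of all gene counts in melatonin libraries and 0.319% to 0.401% in control libraries.

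FADS1 and FADS2, neighbouring genes whose desaturases act on polyunsaturated fatty acids, were both lower after melatonin. FADS1 had 172, 172 and 167 CPM, against 194, 190 and 213 CPM in control (log2 fold change -0.22, SE 0.0624, adjusted p = 0.0151). FADS2 had 24.6, 28.9 and 27.1 CPM, against 32.3, 32.6 and 33.3 CPM in control (-0.28, SE 0.0798, adjusted p = 0.0158). For both genes all melatonin libraries lay below all control libraries, and the 2 genes share some exon bases on opposite strands. With the set term FADS1 stood at -0.31 (adjusted p = 0.0980) and FADS2 at -0.19 (0.502). The FADS1 call also ended without control replicate 3 (0.0703) or melatonin replicate 2 or 3 (0.0503 and 0.0704), and the FADS2 call without melatonin replicate 1 (0.0878). In the counts of the second strand alone the FADS1 value was -0.14 (0.149), and FADS2 was called on neither strand alone (-0.31, 0.0649 on the first and -0.22, 0.0864 on the second).

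The genes of the elongases, which lengthen fatty acid chains, were not called after melatonin, with ELOVL1 at 0.03, ELOVL5 at -0.14 and ELOVL6 at 0.05. ACSL3, which activates fatty acids with CoA, had 350, 327 and 333 CPM in melatonin and 328, 314 and 350 CPM in control libraries, and these overlapped (0.02, adjusted p = 0.824). The ratio of SCD to FASN counts within a library was 5.08 ± 0.382 in melatonin and 3.75 ± 0.438 in control libraries (SD, n = 3 each). The melatonin ratios lay wholly above the control ratios, with a two-sided exact permutation p of 0.1, the smallest possible. The siCLOCK ratios were 3.69, 4.97 and 4.88, so they ran from the control range into the melatonin range.

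**Figure D3:**
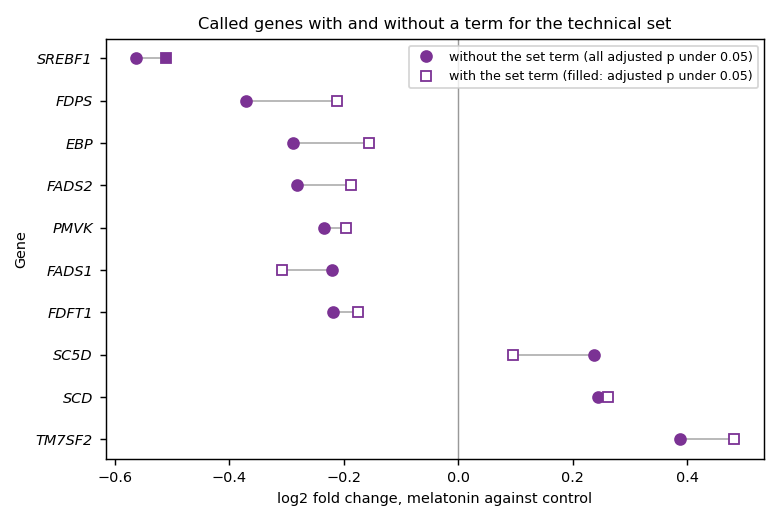
Log2 fold change of the 10 called genes, melatonin against control, from the model without (circles) and with (squares) a term for the technical set. All 10 keep their sign, and only the square of SREBF1 is filled, at -0.51 with an adjusted p of 0.0104.

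In siCLOCK cells none of the 36 tested genes passed the test against control. Across all genes 20 of 16441 passed, a background of 0.122% (0.0547% higher and 0.0669% lower). DESeq2 and limma-voom also called 0 of the 36. In edgeR 2 of the 36 had an unadjusted p under 0.05, against 1355 of the 16441 genes. Fold changes ran from -0.23 to 0.18 with a median of -0.01, against 0.00 over all genes. The 95% intervals of all 36 lay between -0.40 and 0.47 on the log2 scale, with a median half-width of 0.163. Groups did not overlap for 7 genes (19.4%), of which 1 was higher and 6 lower in siCLOCK, against 10.8% of all genes (5.75% higher and 5.06% lower).

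The 2 genes with an unadjusted p under 0.05 were the desaturases that also fell after melatonin, in a comparison that shares its control libraries. FADS2 had 27.9, 29 and 26.7 CPM in siCLOCK, against 32.3, 32.6 and 33.3 CPM in control (log2 fold change -0.23, SE 0.0794, adjusted p = 0.374 by edgeR's quasi-likelihood test). FADS1 had 173, 172 and 183 CPM in siCLOCK, against 194, 190 and 213 CPM in control (-0.18, SE 0.0623, adjusted p = 0.393 by edgeR's quasi-likelihood test). Each siCLOCK library, the library labelled siCLOCK replicate 3 included, lay below each control library for both genes, and neither fold change passed the adjustment over all genes. Without that library the values were -0.21 for both.

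Elsewhere siCLOCK values were small. The regulator with the largest value was INSIG1, at 119, 167 and 164 CPM in siCLOCK, against 155, 149 and 178 CPM in control (-0.10), and SREBF1 stood at 0.08 with an interval from -0.07 to 0.22. In the mevalonate steps MVK had 18.4, 17.2 and 15.3 CPM in siCLOCK (-0.16), and all 3 lay below the controls. HSD17B7, a reductase of late sterol synthesis, had 23.3, 23.1 and 27.3 CPM in siCLOCK, against 20.9, 22.6 and 21.6 CPM in control (0.18, adjusted p = 0.634). FASN had 991, 813 and 778 CPM in siCLOCK (-0.15, adjusted p = 0.646). Leaving out siCLOCK replicate 1, the library with the least CLOCK, moved FASN to -0.26 with an adjusted p of 0.0496, the only call that any of the 20 alternatives gave among the 36. ABCA1, at 24.2, 37.9 and 42.7 CPM in siCLOCK, stood at 0.12, and ACSL3, at 317, 334 and 354 CPM, at 0.02.

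The treatments were then set against each other. Melatonin differed from siCLOCK for 5 of the 36 genes (13.9%), against 17.5% of all genes, with 1 higher (background 7.43%) and 4 lower (10.1%). SREBF1 was lower in melatonin at 391, 404 and 401 CPM, against 566, 694 and 607 CPM in siCLOCK (log2 fold change -0.64, SE 0.0687, adjusted p = 6.14e-06). FDPS was lower at 61.2, 67.8 and 69.5 CPM, against 88.3, 99.5 and 84.1 CPM in siCLOCK (-0.45, SE 0.0736, adjusted p = 0.000362). For both genes the groups were far apart, and all 20 alternatives kept the call. The technical set term leaves the library labelled siCLOCK replicate 3 alone on the siCLOCK side. With that term SREBF1 stood at -0.61 and FDPS at -0.34.

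The other 3 calls between the treatments were smaller. TM7SF2 was higher in melatonin, at 61.5, 65.8 and 65.6 CPM, against 39.5, 60.1 and 46.6 CPM in siCLOCK (0.40, SE 0.110, adjusted p = 0.0168). ELOVL5, an elongase of polyunsaturated fatty acids, was lower, at 372, 367 and 359 CPM, against 422, 409 and 430 CPM in siCLOCK (-0.20, SE 0.0591, adjusted p = 0.0263). SREBF2 was lower, at 252, 254 and 241 CPM, against 266, 310 and 278 CPM in siCLOCK (-0.19, SE 0.0648, adjusted p = 0.0442). The groups did not overlap for these 3 genes. The set term again left the library labelled siCLOCK replicate 3 alone on the siCLOCK side. With that term TM7SF2 stood at 0.46, ELOVL5 at -0.23 and SREBF2 at -0.16, and none of them was called.

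Other alternatives also ended these 3 calls. The TM7SF2 call ended without siCLOCK replicate 1 (adjusted p = 0.0536) or melatonin replicate 2 or 3 (0.0643 and 0.0630) and in the counts of the first strand (0.104), and that of ELOVL5 without melatonin replicate 1, 2 or 3 (0.0652, 0.0913 and 0.113) and in those of the second strand (0.0806). The SREBF2 call ended without siCLOCK replicate 2 (-0.13, 0.200), control replicate 1 or 2 (0.0567 and 0.0577) or melatonin replicate 1, 2 or 3 (0.100, 0.103 and 0.173). It also ended with upper-quartile scaling (0.0562), with only the 6 libraries compared (0.0676) and in the counts of the second strand (0.159). Leaving out the library labelled siCLOCK replicate 3 raised the count to 9, and that over all genes to 3858. It added IDI1, which was higher in melatonin (0.33, adjusted p = 0.00804), and FDFT1, EBP and ACLY, which were lower (adjusted p = 0.0437, 0.0374 and 0.0381). Groups did not overlap for 15 of the 36 (41.7%), against 34.2% of all genes, with 5 higher (background 16.8%) and 10 lower (17.4%).

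**Figure D4:**
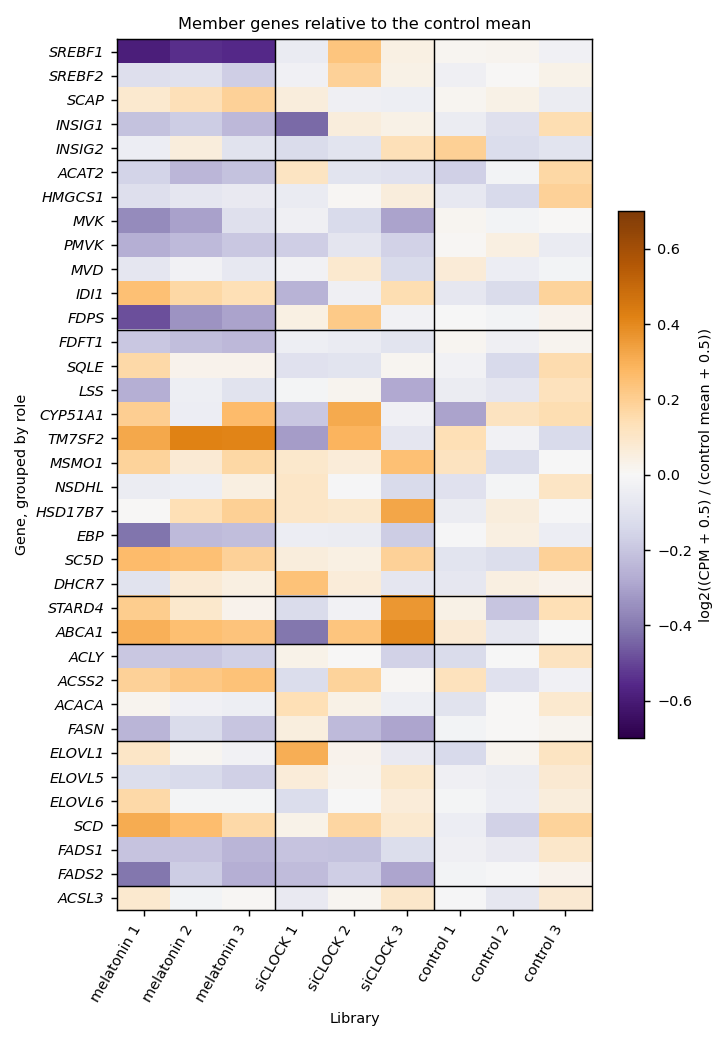
Log2 of each library's CPM over the control mean (0.5 added to both) for the 36 tested genes, with melatonin, siCLOCK and control libraries from left to right and roles set apart by lines. SREBF1 and FDPS are lowest in the 3 melatonin libraries, and the siCLOCK libraries differ among themselves, as for ABCA1 at 24.2, 37.9 and 42.7 CPM.

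Within groups the set varied much as other genes did. Among members with a mean of at least 5 CPM, the median coefficient of variation was 3.78% in melatonin, 8.08% in siCLOCK and 6.05% in control, against 4.45%, 7.93% and 5.96% over all such genes. ABCA1 varied most, at 27.5% in siCLOCK. Control replicate 3 was the highest control library for 23 of 36 genes (63.9%, against 35.8% of all genes), and control replicate 2 was the lowest for 20 (55.6%, against 31.9%). All 38 genes together took 0.885% to 0.937% of gene counts in melatonin, 0.840% to 0.888% in siCLOCK and 0.815% to 0.921% in control libraries. These ranges overlapped between the groups.

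Levels were compared between genes as CPM per kilobase of exon not shared with another gene. SCD led at 791 in melatonin, 715 in siCLOCK and 668 in control. SREBF1 followed in control at 131, with 88.8 in melatonin and 138 in siCLOCK. In melatonin ELOVL1 at 106, ELOVL5 at 105 and FASN at 97.6 also stood above SREBF1. FASN had 97.6 in melatonin, 101 in siCLOCK and 111 in control. At the low end ABCA1 had 3.44 in melatonin, 3.10 in siCLOCK and 2.86 in control, and MVK had 5.50, 5.91 and 6.58. Not all neighbours in this order stood apart: in control ELOVL5 at 116 ± 5.78 and FASN at 111 ± 1.43 (SD, n = 3 each) differed by less than the SD of ELOVL5.

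**Figure D5:**
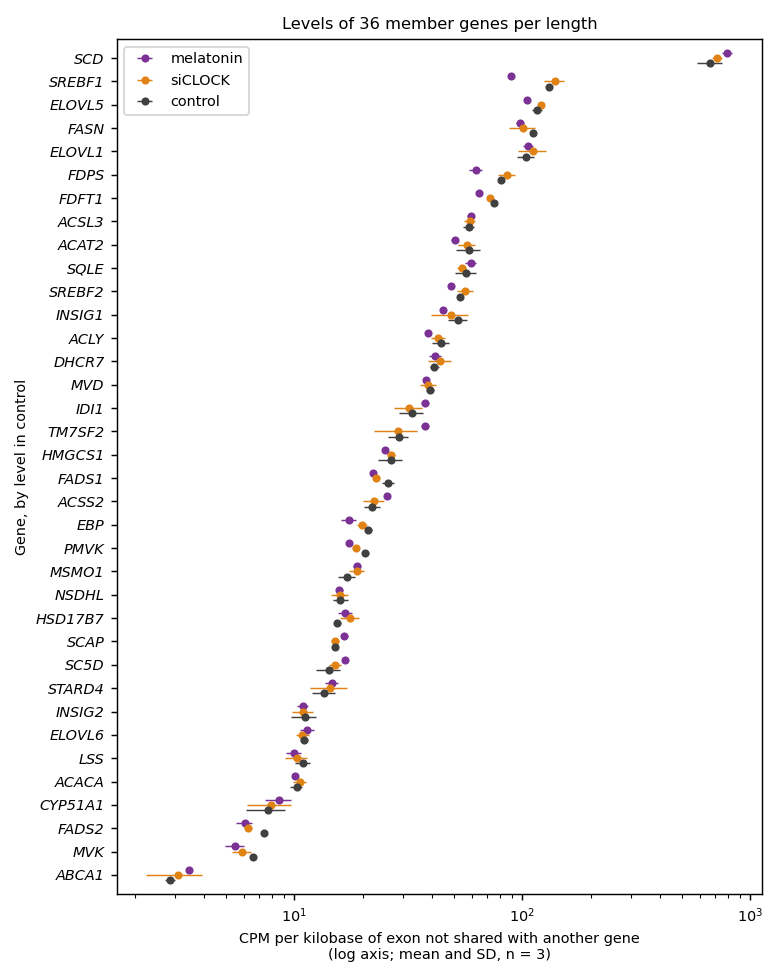
CPM per kilobase of unshared exon on a log axis for the 36 tested genes, ordered by their level in control, with the mean and SD (n = 3) of melatonin, siCLOCK and control. SCD stands at 668 to 791 in every group, and SREBF1 is the gene whose melatonin point, at 88.8, lies farthest from the other groups.

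Genes around the pathway were counted as lists that hold none of the 38. SREBP processing and degradation, with the proteases and ubiquitin ligases that act on SREBP, SCAP or the sterol enzymes, had 4 of 9 genes higher after melatonin and 0 lower (44.4%, against 23.1% of all genes called and 11.0% called higher), with a median of 0.22 against 0.01 over all genes. RNF145 had 252, 250 and 239 CPM after melatonin, against 199, 168 and 205 CPM in control (log2 fold change 0.37, adjusted p = 0.000902). RNF139, also a ligase, stood at 0.35 (0.00295), ERLIN2, a membrane scaffold of this degradation, at 0.33 (0.00301), and MBTPS1, the protease that makes the first cut in SREBP, at 0.23 (0.00932). All 4 kept a positive value with the set term and none was called there, with RNF145 at 0.29 (adjusted p = 0.179), RNF139 at 0.20 (0.423), ERLIN2 at 0.21 (0.373) and MBTPS1 at 0.32 (0.0698). The MBTPS1 call also ended without melatonin replicate 1 (0.0625). Against siCLOCK, RNF139 was called at 0.30 and RNF145 at 0.26, calls that ended without melatonin replicate 2 (adjusted p = 0.0556 and 0.0660), and without melatonin replicate 3 (RNF139, 0.0505) or 1 (RNF145, 0.0685). With the set term, which leaves the library labelled siCLOCK replicate 3 alone on the siCLOCK side, RNF139 stood at 0.20 and RNF145 at 0.21. Neither was called there.

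Sterol handling and transport, which covers lysosomal release, storage and movement of cholesterol, had 5 of 18 genes higher after melatonin and 0 lower (27.8%, against 23.1% of all genes called and 11.0% called higher), with a median of 0.13. GRAMD1B, which moves cholesterol from the plasma membrane to the endoplasmic reticulum, had 66.7, 64.6 and 66.5 CPM after melatonin, against 34.1, 37.3 and 43.6 CPM in control. The groups were far apart (log2 fold change 0.78, SE 0.0910, adjusted p = 7.07e-06), and the siCLOCK libraries at 40.8, 50.7 and 48.4 CPM stayed below all melatonin libraries. NPC2, the lysosomal cholesterol carrier, stood at 0.54 (adjusted p = 6.29e-05), LIPA, the lysosomal lipase that frees cholesterol from its esters, at 0.44 (0.00101), and ERG28, a scaffold of sterol enzymes, at 0.25 (0.0190). With the set term GRAMD1B (0.70, adjusted p = 0.00932) and NPC2 (0.67, 0.00258) stayed called, while LIPA stood at 0.44 (0.0884) and ERG28 at 0.42 (0.0504). The ERG28 call also ended without melatonin replicate 1 or 2 (0.0733 and 0.0915) or control replicate 1 or 2 (0.0842 and 0.0647). Against siCLOCK 6 of the 18 were higher in melatonin and 0 lower (33.3%, against 17.5% of all genes called and 7.43% called higher), with GRAMD1B at 0.50 (adjusted p = 0.000884) and NPC2 at 0.32 (0.00656). Each of the other calls among the 6 ended when a single library was left out. That of LIPA ended without melatonin replicate 1 (adjusted p = 0.0850) and that of ERG28 without melatonin replicate 2 (0.0570).

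The isoprenoid branches, which use farnesyl diphosphate, had 2 of 11 genes higher and 2 lower after melatonin (36.4%, against 23.1% of all genes), with a median of -0.04. GGPS1, the synthase of geranylgeranyl diphosphate, stood at 0.43 (adjusted p = 0.00508) and DOLK, the dolichol kinase, at 0.30 (0.0113), while PDSS1 and COQ2 of ubiquinone synthesis stood at -0.48 (0.0143) and -0.31 (0.0271). With the set term DOLK alone stayed called (0.51, adjusted p = 0.0285), with GGPS1 at 0.42 (0.217), PDSS1 at -0.24 (0.624) and COQ2 at -0.40 (0.197). The DOLK call ended without melatonin replicate 2 or 3 or control replicate 1 (0.0639, 0.0680 and 0.0578), that of PDSS1 without melatonin replicate 1 or control replicate 2 (0.0636 and 0.0848), and that of COQ2 without melatonin replicate 1 or 3 or control replicate 1 or 2 (0.109, 0.133, 0.0823 and 0.0856).

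Other genes of fatty acid and glycerolipid synthesis had 2 higher and 2 lower among 25 tested (16%, against 23.1% of all genes), with a median of -0.01. AGPAT2, an acyltransferase on the way to triglyceride, stood at -0.42 (0.000763), the elongase gene ELOVL4 at 0.41 (0.00200) and its relative ELOVL2 at -0.26 (0.0145), and with the set term ELOVL2 alone stayed called (-0.49, 0.0132), while it was not called without melatonin replicate 3 or control replicate 3 (0.0646 and 0.0713). With that term AGPAT2 stood at -0.20 (0.407) and ELOVL4 at 0.31 (0.278). Fatty acid oxidation had 2 higher and 2 lower among 20 (20%, against 23.1% of all genes), with a median of 0.05. HADHB, a subunit of the mitochondrial trifunctional protein, stood at 0.27 (0.00506), and CPT2, which passes fatty acids on from carnitine, at 0.32 (0.0212), while ECI1 and HADH, further enzymes of the mitochondrial spiral, stood at -0.33 (0.0114) and -0.21 (0.0293). None stayed called with the set term, where HADHB stood at 0.19 (0.367), CPT2 at 0.23 (0.5), ECI1 at -0.03 (0.934) and HADH at -0.18 (0.447). Without control replicate 1 the calls of CPT2 (0.0783), ECI1 (0.0808) and HADH (0.0640) ended, and those of CPT2 and HADH ended without any of the 3 melatonin libraries as well, with CPT2 at 0.0620 to 0.0750 and HADH at 0.0730 to 0.101. CPT2 was not called without control replicate 3 either (0.0628), nor HADH without control replicate 2 (0.104).

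In siCLOCK cells none of the genes in the 5 lists passed the test against control by edgeR, DESeq2 or limma-voom. By edgeR 0.122% of all genes passed. An unadjusted p under 0.05 in edgeR was reached by 7 of the 83 tested, near the background of 1355 of all 16441 genes. Among the 7 were GRAMD1B at 0.28 (adjusted p = 0.340) and NPC2. Against siCLOCK, melatonin had 1 of 11 isoprenoid branch genes higher and 2 lower, 3 of 25 genes of other fatty acid and glycerolipid synthesis higher and 0 lower, and of 20 oxidation genes 1 in each direction, beside 17.5% of all genes called (7.43% higher and 10.1% lower).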

How the data were processed

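The study deposited 1 table of raw read counts per gene for each of 9 libraries, 3 per group. Per the submitters' processing notes, the authors used STAR 2.7.9a and the human build GRCh38 (hg38), and the deposited counts cover reads regardless of strand and each strand alone. The annotation is not given in the sources used here. All 58721 identifiers matched GENCODE release 29, which supplied symbols, positions and overlaps. Strand totals differed by a ratio of 1.01 to 1.05, so counts regardless of strand were used, and 9.77% to 10.6% of reads were ambiguous between genes and left out. The counts of 1 strand alone hold only a part of the reads of a gene without overlap, so a call can end there through lower depth. Summary lines on unmapped, multimapping, no-feature and ambiguous reads stayed out of library sizes.

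The tests ran in edgeR 4.0.16 under R 4.3.3: filterByExpr with the 3 groups chose the genes, TMM scaled the libraries, and all 9 entered a single quasi-likelihood fit by group. Two-sided F tests were adjusted by Benjamini-Hochberg over 16441 genes, and a gene was called at an adjusted p under 0.05. Unless another tool is named, adjusted p-values come from this test. The biological coefficient of variation was 0.0682. The SE was derived from the F statistic, as the absolute log2 fold change over its square root, and intervals are 95%. Ratios of counts within libraries were compared by exact permutation. The script was tested on simulated data.

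The 38 genes, the 5 lists and the choice of named genes were fixed with earlier results of these data known. Named with values by library were the regulators, the called genes with the smallest p in each comparison (up to 12) and the gene of each role with the largest change in each treatment. Of the lists, 2 to 4 genes with the smallest p were named, with values by library for RNF145 and GRAMD1B only. The other genes are given by fold change, count or range. ACLY and IDI1 are exceptions, with values by library shown although neither was called, a choice made after seeing them. Some genes of the pathway are not reported here. Promoters come from RefSeq (GRCh38.p14).

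There were 20 alternatives, planned with the sets of libraries already known: RLE and upper-quartile scaling, DESeq2 1.42.0, limma-voom (limma 3.58.1), a fit of just the 6 libraries of a comparison, no filter on low counts, 5 CPM or more in 3 or more libraries, the replicate number as a block, each strand column, a term for the technical set (libraries divided at 1.8% unmapped reads) and each of the 9 libraries left out. Library totals from 15384539 to 19192962 gene counts set the counting error, which the SE includes.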

Additional observations from a re-analysis of the deposited data

How the results depend on the processing

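SREBF1 kept its direction and its call in all 20 alternatives in both comparisons with melatonin, and no gene of the set or the lists that was called took the opposite sign in any alternative. Against the 10 genes of the set called for melatonin against control (3790 of all genes), the technical set term left 1 (770 of all genes), only the 6 libraries compared gave 19 (5312), and leaving out single libraries gave 5 to 17 (2451 to 4646 of all genes). For melatonin against siCLOCK, 5 (2876) became 2 (961) with the set term and 2 to 9 (1650 to 3858) without single libraries. For siCLOCK against control the set held 0 calls under every alternative but 1, without siCLOCK replicate 1, so that single libraries gave 0 to 1. Over all genes in that comparison, 20 calls became 211 with no filter, 5 with the filter of 5 CPM, 12 with the replicate block, 9 and 13 in the counts of the first and the second strand, 116 with the set term, 7 with only the 6 libraries compared, 74 under DESeq2 and 2 to 107 without single libraries. The cause of these shifts was not tested beyond what each alternative changes by construction. The replicate numbers did not pair the libraries: of 9 pairs with the same number in different groups, 0 had a correlation of deviations above 0.1 (-0.0923 to 0.0629). The replicate block gave 9 calls in the set for melatonin against control (3533 of all genes), 0 for siCLOCK against control and 4 for melatonin against siCLOCK (2712), without PMVK in the first comparison (adjusted p = 0.0510) and SREBF2 in the third (0.0559). With 3 libraries a group and 1 group spanning both technical sets, small changes could go uncalled, and ABCG1 and THRSP were too low to test. In simulated counts, which held no technical sets, the test of melatonin against control called 10 of 68 genes changed 1.2-fold. It called 50 of 66 genes changed 1.5-fold. Far fewer genes were changed there than were called in the data, and every gene had the same biological spread. The adjustment over all genes was therefore stricter there, and these shares do not give the power of the test in the data.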
